A study of Bos taurus with 12 samples.

Results

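Lactoferrin (LTF), the iron-binding antimicrobial protein of milk, and the polymeric immunoglobulin receptor (PIGR) were the genes that passed the test, both with a higher mammary signal in feed-restricted cows, among 10 genes of milk defence and the acute phase. LTF was higher in 6 of 6 cows and PIGR in 5 of 6, and both calls were lost in a fit without pairing by cow and when some of the cows were left out. The serum amyloid A genes SAA3 and M-SAA3.2 had larger mean differences and were higher in every cow, apart from SAA3 in cow 4 when arrays were scaled to their median, but most of that difference came from 1 cow and neither passed the test. The 10 genes were SAA3, M-SAA3.2, haptoglobin (HP), lipopolysaccharide binding protein (LBP), LTF, lactoperoxidase (LPO), PIGR, S100A8, S100A9 and S100A12. They were chosen by name, with earlier results of these data known. All array probes whose RefSeq transcript belonged to one of them were used. That gave 27 probes of the 43653 on the arrays, and 10 genes of the 12787 that could be named.

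Mammary gland RNA came from multiparous Holstein cows in midlactation, biopsied at day 0 (CONT), when a lactation diet was offered without limit, and again at day 6 (REST), when the feed offered covered 50% of the net energy that lactation required. Each of 6 cows gave 1 array in each period, so 12 arrays were compared as 6 pairs. No cow was kept on full feed to day 6, so feed restriction, time and a repeated biopsy cannot be told apart. The biopsies were taken from alternate rear glands of the udder, so the side sampled also changed between CONT and REST within a cow. The labels name 6 cows while the design text counts 5, and the study's methods state that a Holstein cow was left out because of mastitis, which is an inflammation of the gland. The labels do not say which cow that was, and none is identified here, so the paired fit was also run without each cow in turn. The correlations were not recomputed in this way.

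The gland protects itself and the suckling calf with proteins that its epithelial cells secrete into milk. LTF withholds iron from bacteria, LPO makes antibacterial oxidants from hydrogen peroxide and thiocyanate, and PIGR carries immunoglobulin A across the epithelium and is cut to release secretory component. Acute phase proteins rise in blood and in milk during inflammation. The liver makes much of them, but SAA3 and M-SAA3.2 are serum amyloid A forms made outside it, including in the udder, where they increase in mastitis. LBP hands bacterial lipopolysaccharide to CD14, HP binds free haemoglobin, and S100A8, S100A9 and S100A12 are calcium-binding proteins that neutrophils hold in large amounts.

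The arrays of slide 3, which held cows 5 and 6, were dimmer than those of the other slides, with 41.9 to 48.0% of spots well above background against 61.8 to 67.9%. No spot of the 10 genes was marked as faulty by the scanner software, and no spot was saturated. Before scaling, arrays from REST had the higher 75th percentile of intensity in 6 of 6 cows, by 0.30 ± 0.10 log2 units (SD, n = 6), and the scaling removes that difference. The tissue label was borne out by its milk proteins. Kappa-casein (CSN3) stood at 9.98 ± 0.18 log2 units above the scaling point in CONT and at 9.70 ± 0.17 in REST (SD, n = 6 each). Normalized signals here are log2 intensities relative to the 75th percentile of each array, and a change is REST minus CONT within a cow, so that a change of 1 is a doubling.

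Of the 27 probes, 20 were well above background on all 12 arrays and were tested, and they covered 7 of the 10 genes. HP, S100A8 and S100A9 were too dim to test, and S100A12 was tested with 1 of its 3 probes. A probe was called when its adjusted p in the paired limma fit, over 19406 tested probes, was below 0.1. Of the 20 probes, 7 were called higher in REST, 5 of LTF and 2 of PIGR, and 0 were called lower, while 12 had an unadjusted p under 0.05. The share of all tested probes at that unadjusted p is not given here. Over all tested probes, 7.22% were called higher and 8.78% lower, 16.0% in all. Counted by the probe of highest mean signal, 2 of the 7 tested genes were called higher, beside 6.95% of 7932 tested genes, and 0 lower, beside 9.27% (16.2% of genes in either direction). The median change of the 7 genes was 0.44, against -0.01 for all tested genes. The genes were chosen with earlier results of these data known, so contrasts with all genes, here and below, are not independent of that choice. For all 20 probes the ranges of the CONT and REST arrays overlapped.

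**Figure D1:**
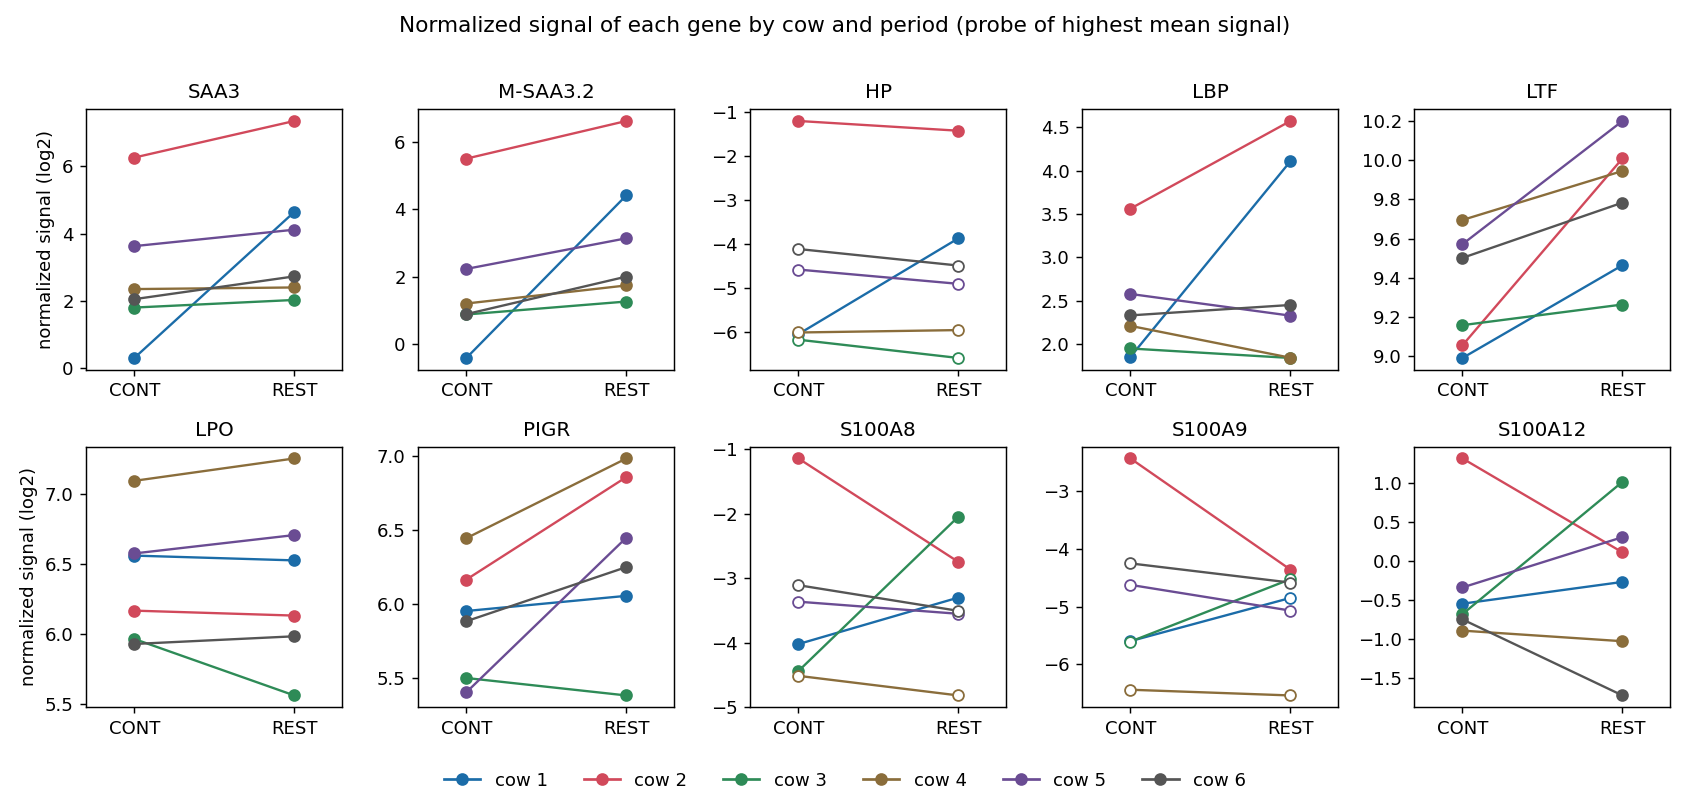
Normalized signal (log2, relative to the 75th percentile of the array) of the 10 genes in CONT and REST, 1 panel a gene with its own axis, 1 line a cow, with the probe of highest mean signal. Open circles mark arrays on which the probe was not well above background; SAA3, M-SAA3.2 and LTF were higher in REST in all 6 lines, by 0.05 for SAA3 in cow 4, which was -0.01 with a median shift, and cow 2 started highest for SAA3, M-SAA3.2, HP, LBP and the S100 genes.

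SAA3 (NM_181016), the serum amyloid A form made outside the liver, was read by 4 probes. With the probe of highest signal, CONT signals in cows 1 to 6 were 0.29, 6.26, 1.80, 2.35, 3.63 and 2.05 log2 units. In REST they were 4.65, 7.35, 2.02, 2.39, 4.12 and 2.72. Cow 2 was the highest in both periods, and cow 1 went from the lowest CONT value to above every cow but cow 2. The CONT values spanned 5.97 log2 units, 62.7-fold, while the median tested gene spanned 0.63, and 99.975% of tested genes had a range no wider than that of SAA3. The change was 4.35 in cow 1, a 20.4-fold difference, and 1.09 in cow 2. In cows 3 to 6 it was 0.23, 0.05, 0.49 and 0.68.

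The mean change of SAA3 was 1.15 (SE 0.50), 2.22-fold with a 95% interval from 1.01 to 4.86, and the adjusted p was 0.177. Across its 4 probes the mean change ran from 1.15 to 1.46 with adjusted p between 0.112 and 0.177, and with each probe all 6 cows were higher in REST. With a median shift in place of the 75th percentile, the change of cow 4 with the brightest probe was -0.01, so that 5 of 6 cows were higher. In an exact sign-flip test over 6 cows, two-sided, p was 0.03125, the smallest that 6 pairs allow. Probes higher in all 6 cows made up 7.77% of all tested probes and numbered 10 among the 20 of the 10 genes. By genes, SAA3, M-SAA3.2 and LTF were 3 of the 7 tested, beside 7.5% of all tested genes. Without cow 1 the mean change of SAA3 was 0.51 (adjusted p = 0.111) and 3 of its 4 probes were then called, with a lowest adjusted p of 0.0421. Without cows 1 and 2 it was 0.36 (adjusted p = 0.268). By slide, each holding 2 cows, the mean change was 2.72 on slide 1, 0.14 on slide 2 and 0.58 on slide 3.

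M-SAA3.2 (NM_001242573), a mammary serum amyloid A gene that lies in the same gene cluster as SAA3, had 1 probe and the same order of cows. Its CONT signals were -0.42, 5.51, 0.88, 1.20, 2.23 and 0.89 in cows 1 to 6, and its REST signals 4.42, 6.63, 1.26, 1.74, 3.14 and 2.0. The change was 4.83 in cow 1, 28.5-fold, and 1.12 in cow 2. In cows 3 to 6 it was 0.38, 0.54, 0.91 and 1.12. Here too every cow was higher in REST, and the groups overlapped. The mean change was 1.48 (SE 0.52), 2.80-fold with a 95% interval from 1.24 to 6.30, with an adjusted p of 0.108. Of 7932 tested genes, 10 had a larger mean change. Without cow 1 the change was smaller, 0.81, but the spread was smaller too, and it passed the test (SE 0.13, adjusted p = 0.0329). Without cows 1 and 2 it was 0.74 (adjusted p = 0.108). SAA3 and M-SAA3.2 correlated at r = 0.990 over the 12 arrays, which share cows and slides, and at 0.951 over the 8 arrays of cows 3 to 6. The transcripts are closely related, and how far a probe for one of them also binds the other was not tested.

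LBP (NM_001038674), which presents bacterial lipopolysaccharide to immune cells, differed between cows 1 and 2 and the rest. With the brightest of 5 tested probes, CONT signals in cows 1 to 6 were 1.85, 3.56, 1.95, 2.21, 2.58 and 2.33. REST signals were 4.11, 4.57, 1.84, 1.84, 2.33 and 2.45. Cow 1 was higher in REST by 2.26, 4.79-fold, and cow 2 by 1.01, 2.02-fold, and in REST these cows alone exceeded the highest CONT value. The changes of cows 3 to 6 were -0.11, -0.37, -0.25 and 0.12, so these 4 cows differed in direction. The mean change was 0.44 (SE 0.32, adjusted p = 0.399), and the 5 probes gave 0.00 to 0.44, none called, with adjusted p from 0.399 to 0.999. Without cow 1 the mean change was 0.08. Without cows 1 and 2 its sign turned, to -0.15 (adjusted p = 0.566). On slide 1 it was 1.64, on slide 2 -0.24 and on slide 3 -0.07.

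HP (NM_001040470), the haemoglobin-binding acute phase protein, was near background in most samples. Its 3 probes were well above background on both arrays of cow 2, and 1 of them also on the REST array of cow 1. With that probe cow 2 had normalized signals of -1.20 in CONT and -1.42 in REST, and cow 1 went from -6.06 to -3.87. All other arrays lay between -6.60 and -4.12, not well above background, so no fold change is given. The cows with a measurable HP signal were those with the highest REST signals of SAA3, M-SAA3.2 and LBP.

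Across the 12 arrays the signal of SAA3 correlated with that of LBP at r = 0.891 and with that of HP at r = 0.886, although HP was well above background on 3 of these arrays. The changes of the 6 cows in SAA3 and LBP correlated at 0.952. These values rest largely on cows 1 and 2. Over the 8 arrays of cows 3 to 6, r was 0.628 for SAA3 with LBP and 0.476 for SAA3 with HP, which was below background there. Both cows with high values were on slide 1, whose brightness was close to that of slide 2.

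**Figure D2:**
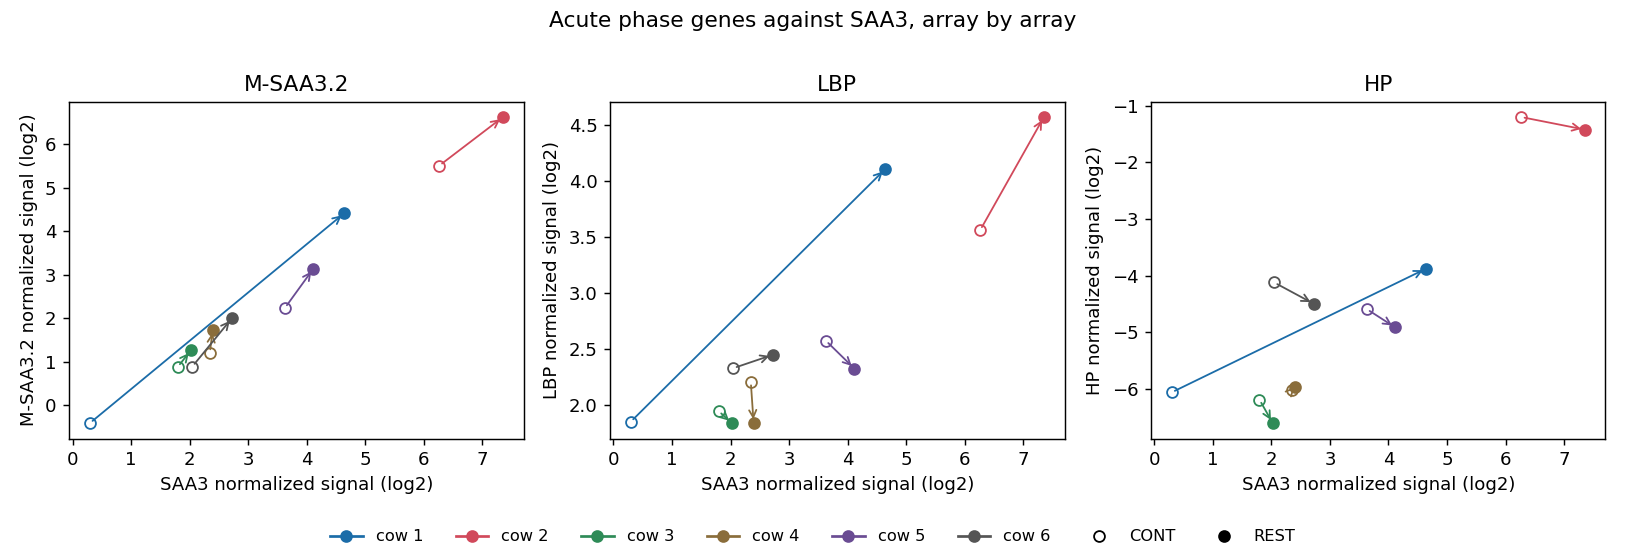
Normalized signals (log2) of M-SAA3.2, LBP and HP against that of SAA3, 1 arrow a cow from CONT (open circle) to REST (filled circle), with the probe of highest mean signal of each gene. M-SAA3.2 moved along 1 line with SAA3, while LBP was highest in cow 2 and in the REST array of cow 1, while HP was highest in cow 2 and the other cows spread over values mostly at background.

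The 5 genes outside the 10 whose signal over the 12 arrays was most like that of M-SAA3.2, of 7925 compared, were SAA2 (r = 0.942), RPL38 (0.929), CFB (0.911), IL34 (0.899) and LOC513055 (0.895). SAA2, a further serum amyloid A gene of the same cluster, was well above background on all 6 REST arrays and on 2 of the 6 CONT arrays, and so it entered the test only through the group in which it was high, and no mean change or call is given for it. Its signal in cow 2 was 1.04 in CONT and 1.96 in REST. The other CONT arrays lay between -4.92 and -3.93, and the other REST arrays between -3.97 and -0.12. CFB, complement factor B of the alternative pathway, rose by 0.84 (SE 0.20, adjusted p = 0.0411, but 0.226 with the cow as a random block), with 1.76 in cow 1 and 1.46 in cow 2, and between 0.28 and 0.69 in the others. IL34, a ligand of the macrophage colony stimulating factor receptor, rose by 0.56 (SE 0.16, adjusted p = 0.0627). Without cows 1 and 2 neither was called (0.46, adjusted p = 0.148, for CFB and 0.38, adjusted p = 0.234, for IL34). RPL38, a ribosomal protein gene, changed by 0.24 (adjusted p = 0.154) and LOC513055 by 0.25 (adjusted p = 0.101), and neither was called. CFB, IL34, RPL38 and LOC513055 were higher in REST in 6 of 6 cows. They were picked for likeness to M-SAA3.2 over these same arrays, so their direction is not independent of it. Likeness alone did not fix the direction, since LBP, with r = 0.914 to M-SAA3.2, was higher in 3 of 6 cows.

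LTF (NM_180998), the iron-binding protein of milk, was higher in REST with all 5 probes and in all 6 cows. With the brightest probe, CONT signals in cows 1 to 6 were 8.99, 9.06, 9.16, 9.69, 9.57 and 9.50. REST signals were 9.46, 10.01, 9.26, 9.94, 10.20 and 9.78, and 4 of the 6 REST arrays were above the highest CONT array. The changes were 0.47, 0.95, 0.11, 0.25, 0.63 and 0.28. They were largest in cow 2 and smallest in cow 3, and cow 1, which led the serum amyloid A genes, was not apart here. The mean change was 0.45 (SE 0.12, adjusted p = 0.0507), 1.37-fold with a 95% interval from 1.14 to 1.64. The 5 adjusted p-values lay between 0.0507 and 0.0700, and the exact two-sided sign-flip p was 0.03125 for each probe.

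The size of the LTF change depended on the probe. In order of falling mean signal, the 5 probes gave mean changes of 0.45, 0.64, 0.80, 1.01 and 1.06, or 1.37, 1.56, 1.75, 2.01 and 2.09-fold. In cow 2 they gave 0.95, 1.56, 2.13, 2.61 and 2.99, and in cow 3 the range was 0.11 to 0.32. The change was larger with the dimmest probe than with the brightest in 6 of 6 cows, and rose at every step in 2. The brightest probe had processed intensities between 53050 and 401950, and its mean signal was at percentile 99.97 of all probes. The dimmest was at percentile 95.1. Of the 97 genes with at least 3 tested probes, all called in the same direction, the brightest probe had the smaller change in 53, and the median difference was 0.01. In 3 of those genes the brightest probe was above 8 log2 units, LTF among them, and in all 3 it gave the smaller change. This count was made after seeing the data and includes LTF itself, so it is not separate support. Under quantile normalization the brightest probe gave 0.60 in place of 0.45, and after normexp background correction 0.55.

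**Figure D3:**
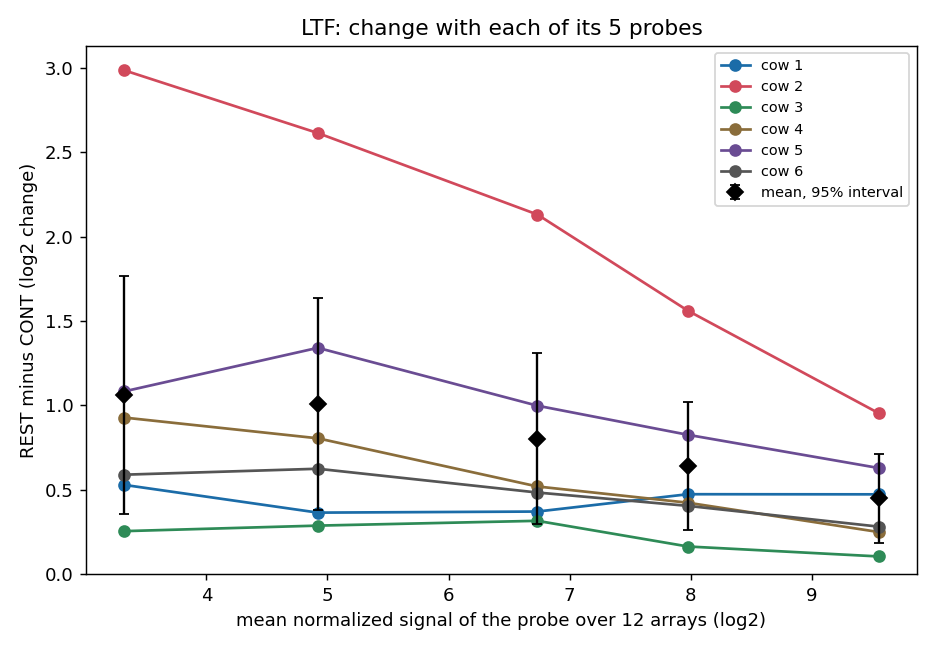
Change of LTF (REST minus CONT, log2) against the mean normalized signal of each of its 5 probes (log2), 1 line a cow, with the mean and its 95% interval in black. The mean change fell from 1.06 with the dimmest probe to 0.45 with the brightest, and cow 2 fell from 2.99 to 0.95.

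How firmly LTF was called depended on the cows that were included. With the brightest probe, which stands for the gene, the call was lost without cow 1 (adjusted p = 0.114), cow 2 (0.127) or cow 4 (0.102), with mean changes of 0.44, 0.35 and 0.49 in these fits against 0.45 with all cows. Calls over all tested probes also fell in these fits, to 1531, 1044 and 1192, against 3105 with all cows. Leaving out cow 3 or cow 6 kept all 5 probes past the threshold, and leaving out cow 2 or cow 5 kept 4. Leaving out cow 1 kept 2, and leaving out cow 4 kept 0, with a lowest adjusted p of 0.102 and 12 of the 20 probes of all genes at an unadjusted p under 0.05. Without the cow as a block, 0 LTF probes were called (lowest adjusted p = 0.121), where 4.31% of all tested probes were. Without cows 1 and 2 none was called (lowest adjusted p = 0.127) and the brightest probe changed by 0.32. The mean change was above 0 in every one of these fits and was 0.71 on slide 1, 0.18 on slide 2 and 0.46 on slide 3.

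PIGR (NM_174143), the transporter of immunoglobulin A into milk, was called with 2 of its 3 probes. With the brightest, CONT signals in cows 1 to 6 were 5.95, 6.17, 5.50, 6.45, 5.40 and 5.88. REST signals were 6.06, 6.86, 5.38, 6.99, 6.45 and 6.25. The change was 0.10, 0.69, -0.12, 0.54, 1.05 and 0.37, higher in 5 of 6 cows, and 3 REST arrays were above the highest CONT array. The mean change was 0.44 (SE 0.15, adjusted p = 0.0963), 1.36-fold with a 95% interval from 1.08 to 1.70. In the exact sign-flip test p was 0.09375. The other probes gave 0.49 (adjusted p = 0.0630) and 0.36 (adjusted p = 0.213). With the brightest probe the call was lost without cow 1, 2, 4, 5 or 6, with adjusted p between 0.121 and 0.237, while the mean change stayed between 0.32 and 0.51. Without cow 3 it was 0.55 and called. With the cow as a random block 1 of the 3 probes was called (adjusted p = 0.0875) and the brightest was not (adjusted p = 0.138). Without the cow as a block none was called, with a lowest adjusted p of 0.336.

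LPO (NM_173933), the peroxidase of milk, did not pass the test in either direction. Its CONT signals in cows 1 to 6 were 6.56, 6.17, 5.97, 7.10, 6.58 and 5.93, and its REST signals 6.53, 6.13, 5.56, 7.26, 6.71 and 5.98. Each cow stayed close to its own level, and the levels of the cows in the 2 periods correlated at r = 0.963 (n = 6 cows). The changes were -0.03, -0.04, -0.40, 0.16, 0.13 and 0.05, with a mean of -0.02 (SE 0.09, adjusted p = 0.906). The 95% interval was from -0.23 to 0.19. The sign of this small mean turned without cow 3 (0.055) and after normexp correction (0.049).

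**Figure D4:**
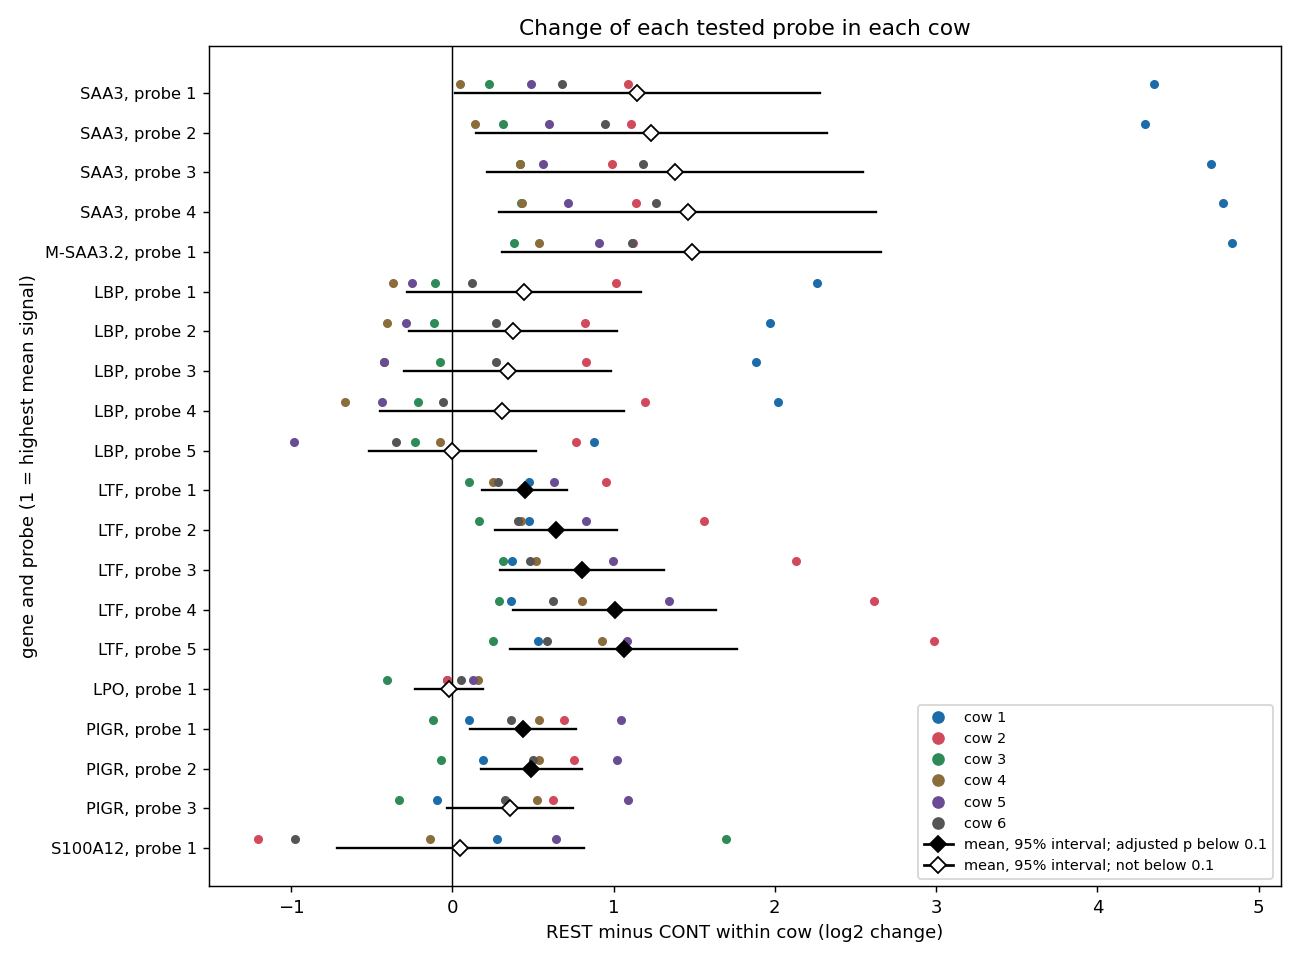
Change of each of the 20 tested probes (REST minus CONT, log2), with 1 coloured point a cow and a diamond for the mean with its 95% interval, filled where the adjusted p was below 0.1. The 5 LTF probes and 2 of 3 PIGR probes are filled, and cow 1 stands far to the right for SAA3 and M-SAA3.2 and, with cow 2, for LBP.

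The S100 genes, which lie next to each other in the genome, did not share a direction across cows. S100A12 (NM_174651), a ligand of the receptor RAGE, had CONT signals of -0.55, 1.31, -0.68, -0.90, -0.34 and -0.75 in cows 1 to 6 with its tested probe. In REST they were -0.27, 0.11, 1.01, -1.03, 0.30 and -1.73. Cow 2 stood above all others in CONT and cow 3 was highest in REST. The changes were 0.28, -1.20, 1.70, -0.14, 0.64 and -0.97, so 3 cows were higher and 3 lower. The mean was 0.05 (SE 0.34, adjusted p = 0.939), with a 95% interval from -0.71 to 0.81 that leaves room for a sizeable change in either direction. Without cow 3 the mean was -0.28, and without cow 5 it was -0.07.

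S100A8 (NM_001113725), which pairs with S100A9 to form calprotectin, was well above background on the arrays of cows 1, 2 and 3 in both periods and on none of cows 4 to 6. Its normalized signal went from -4.02 to -3.30 in cow 1, from -1.14 to -2.75 in cow 2 and from -4.44 to -2.04 in cow 3. S100A9 (NM_001046328) was well above background on the arrays of cow 2 alone, at -2.43 in CONT and -4.36 in REST. S100A8 thus had the same highest cows as S100A12, cow 2 in CONT and cow 3 in REST. Its signal correlated with that of S100A9 at r = 0.933 and with that of S100A12 at r = 0.787 over the 12 arrays, including those at background. Over the changes of the 6 cows, r of SAA3 with S100A12 was -0.05, beside 0.952 with LBP, and none is given for S100A8, which was at background in cows 4 to 6.

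The genes around these proteins were taken from gene lists, each gene by its probe of highest mean signal. Only genes well above background on all 12 arrays are counted below, because a gene that passed the filter through 1 group was likely to differ. Of 7339 such genes on the arrays, 6.39% were called higher in REST and 9.69% lower, 16.1% in all, and the count of each list is to be read beside these shares. Of the genes in the lists 22 were called. With the cow as a random block 8 of them were not, and without the block 19 were not, which left A2M, CLU and APOA1. With every single cow left out in turn, 6 stayed called each time, A2M, APOA1, CHI3L1, CLU, KRT8 and PLAT.

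Neutrophil markers were read beside the S100 genes, because RNA of bulk tissue cannot tell more cells of a type from more RNA per cell. Of 6 neutrophil genes 1 was called higher, beside 6.39% of all, and 0 lower. It was NCF4, an oxidase subunit, which rose by 0.69 (adjusted p = 0.0464) in 6 of 6 cows. NCF4 was not called with the cow as a random block (adjusted p = 0.102), and without cows 1 and 2 its change was 0.40 (adjusted p = 0.259). The median of the 6 genes was -0.04. Their mean was between 1.0 and 1.19 in CONT and between 0.90 and 1.40 in REST. It changed by 0.15, 0.07, -0.13, 0.01, 0.37 and -0.19 in cows 1 to 6, and cows 2 and 3, in which the S100 genes moved most, were not apart. Among the markers that define neutrophils, ITGAM was well above background on no array, MPO and CXCR1 on 1 CONT array each, and CXCR2 on 4 arrays of each period. What part neutrophils had in the S100 signals was not tested.

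Among 6 other acute phase proteins 1 was called higher, beside 6.39% of all, and 0 lower, with a median of 0.16. It was A2M, the broad protease inhibitor alpha-2-macroglobulin, which rose by 1.0 (SE 0.15, adjusted p = 0.0105) in 6 of 6 cows. Among 13 genes listed as other antimicrobial milk proteins 2 were called higher, beside the same 6.39%, and 0 lower, with a median of -0.05. The list is broad, and 6 of the 13 had a change above 0. Whether the called genes act against microbes was not tested. CHI3L1, a chitinase-like glycoprotein secreted by the gland, rose by 2.46 (SE 0.40, adjusted p = 0.0143), from -1.0 ± 1.70 to 1.46 ± 1.62 (SD, n = 6 each). Its change was 4.99 in cow 1, far above the 1.44 to 2.30 of the other cows, and the mean without cow 1 was 1.95 and still called. S100A2, an epithelial member of the S100 family, rose by 0.53 (adjusted p = 0.0465, but 0.144 with the cow as a random block) in 5 of 6 cows.

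Of 7 genes of the interleukin 6 family and STAT3 pathway 1 was called lower, beside 9.69% of all, and 0 higher. It was CEBPB, a transcription factor of acute phase genes, which fell by 0.32 (adjusted p = 0.0555) in 6 of 6 cows, and its call was lost with any of 3 cows left out. IL6 and SOCS3 were well above background on no array. Of 9 genes of NF-kB and Toll-like receptor signalling 1 was called higher and 0 lower, with a median of 0.01. It was NFKBIZ, a nuclear cofactor of NF-kB, by 0.33 (adjusted p = 0.0985) in 5 of 6 cows. That call was lost with quantile normalization (adjusted p = 0.10035), with the cow as a random block (adjusted p = 0.147), without the block (adjusted p = 0.436) and with any of 5 cows left out. ICAM1, an adhesion molecule for leukocytes, missed the background limit on 1 CONT array, so it entered the test only through REST and no call is given. Of 5 cytokine and chemokine genes 1 was called higher and 0 lower, the chemokine CCL5, by 0.38 (adjusted p = 0.0815, but 0.122 with the cow as a random block), and the median was 0.38.

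Among 6 receptors and partners of the 10 proteins 1 was called lower, beside 9.69% of all, and 0 higher. It was SCARB1, a lipoprotein receptor that also binds serum amyloid A, with a change of -0.42 (adjusted p = 0.0813), and its call was lost with any of 4 cows left out. None of 6 genes of immunoglobulin A transport was called, 0 had an unadjusted p under 0.05, and their median was -0.16, beside 0.44 for PIGR.

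Of 12 genes of mammary involution, the regression of the gland after milking stops, 3 were called higher, beside 6.39% of all, and 0 lower, with a median of 0.12. CLU, the chaperone clusterin, rose by 0.99 (adjusted p = 0.0103), PLAT, the tissue plasminogen activator, by 0.52 (adjusted p = 0.0152), and the lysosomal protease CTSD by 0.27 (adjusted p = 0.0770), each in 6 of 6 cows. The call of CTSD was lost with any of 5 cows left out. Of the milk protein genes, 2 of 5 were called lower, beside 9.69% of all, CSN3 by -0.28 (adjusted p = 0.0776) and CSN1S1, alpha-S1-casein, by -0.26 (adjusted p = 0.0912). Both calls depended on the scaling, and each was also lost with any of 5 cows left out. With quantile normalization the changes were -0.072 (adjusted p = 0.562) and -0.091 (adjusted p = 0.438), and with normexp -0.16 (adjusted p = 0.248) and -0.18 (adjusted p = 0.148).

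Markers of cell types that a biopsy can hold were read beside LTF and PIGR. Of 8 luminal epithelial markers 3 keratins were called higher, beside 6.39% of all, and 0 lower, with a median of 0.23. KRT8 rose by 0.72 (adjusted p = 0.00891), KRT7 by 0.53 (adjusted p = 0.0596) and KRT18 by 0.52 (adjusted p = 0.0680). KRT18 was not called with the cow as a random block (adjusted p = 0.188), and the calls of KRT7 and KRT18 were lost with any of 3 and any of 5 cows left out. The mean of the 8 markers ran from 3.02 to 3.52 in CONT and from 3.16 to 3.74 in REST. It changed by 0.48, 0.46, -0.05, 0.41, 0.10 and 0.11 in cows 1 to 6. Cow 3 was lowest here and for LTF and PIGR. Cow 5, with the largest change of PIGR, had a luminal change of 0.10, and cow 1, with a PIGR change of 0.10, had 0.48. What part epithelial cells had in the changes of LTF and PIGR was not tested.

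Of 10 pan-leukocyte markers 3 were called higher, beside 6.39% of all, and 0 lower. The median was 0.28, and 9 of the 10 had a change above 0. RAC2 rose by 0.39 (adjusted p = 0.0510), LAPTM5 by 0.38 (adjusted p = 0.0854) and CORO1A by 0.37 (adjusted p = 0.0401). With the cow as a random block RAC2 was called (adjusted p = 0.0246), while LAPTM5 (adjusted p = 0.103) and CORO1A (adjusted p = 0.142) were not. PTPRC, the CD45 antigen that defines leukocytes, was the marker with a change below 0, -0.15 (adjusted p = 0.348). The mean of the 10 markers was between 0.93 and 1.36 in CONT and between 0.84 and 1.91 in REST. It changed by 0.06, 0.54, 0.32, -0.09, 0.46 and 0.13 in cows 1 to 6. Cow 2 had the largest leukocyte change and the largest of LTF, and cow 1, with the largest change of the serum amyloid A genes, had 0.06. The part of these cells in the changes of LTF, PIGR and the acute phase genes was not tested.

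Of 6 T and natural killer cell markers 1 was called higher and 0 lower, CD3E, by 0.35 (adjusted p = 0.0781), with a median of 0.08, and that call was lost with any of 5 cows left out. CD8A missed the background limit on 1 CONT array, so it entered the test only through REST and no call is given. Of 8 macrophage markers 1 was called lower, beside 9.69% of all, and 0 higher, the complement gene C1QA, by -0.47 (adjusted p = 0.0375, but 0.231 with the cow as a random block), with a median of -0.13. None of 4 B and plasma cell markers was called, and 0 had an unadjusted p under 0.05. Among 3 hepatocyte genes 1 was called higher, the apolipoprotein APOA1, by 1.0 (adjusted p = 0.0109) in 6 of 6 cows, and 0 lower. The median was 0.43, and 2 of the 3 had a change above 0. Their mean changed by 0.33, 0.66, 0.27, 0.74, 0.33 and 0.06 in cows 1 to 6. ALB, the gene that defines hepatocytes, was well above background on 0 CONT and 2 REST arrays. SERPINC1 was so on 5 CONT and 4 REST arrays, and AHSG, F2 and TAT on at most 1 of each. Neither of the 2 erythrocyte genes was called, and both had an unadjusted p under 0.05, with a median of -0.37.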

How the data were processed

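Per the file headers, the authors extracted spot intensities with Agilent Feature Extraction 11.0.1.1 (background-subtracted, detrended processed signal). The deposited series table held the same intensities. Log2 values of this signal were taken here, marked spots were dropped, replicate spots of a probe were averaged, and each array was scaled by subtracting its 75th percentile. Symbols came from RefSeq identifiers (27131 of 43653 probes); coordinates and probe sequences were not used here. Probes well above background on every array of at least 1 group were tested with limma 3.58.1 in R 4.3.3 (lmFit, eBayes), with the cow as a block because both arrays of a cow came from the same animal, and Benjamini-Hochberg adjustment at 0.1. The fit was tested on simulated data. Python 3.11.15 gave exact sign-flip tests over 64 flips. The number of arrays limits precision. Normexp (offset 50) used the median spot signal in place of the mean. Named genes were the 10 members, at most 4 called genes a list of 17 lists, and the 5 genes most like M-SAA3.2. Members and lists were chosen with earlier results of these data known. Alternatives were normalization, background, filter, block, test and each cow left out; leaving out cows 1 and 2 together and using other probes of a gene were chosen after seeing the data.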

Additional observations from a re-analysis of the deposited data

Results flagged for a closer look

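Of 70 groups of 6 arrays that were searched for a sample far from the others, 2 stood out, where chance gives about 1 in 20, or 3.5. The S100A12 signal of cow 2 in CONT was 1.31 log2 units, and its gap to the nearest cow was 0.749 of the group's range. The S100A9 signal in REST had a gap of 0.675 of the range at its low end, at cow 4 with -6.54, where the probe was not well above background. The critical value for 6 samples is 0.625. The causes were not tested.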

How the results depend on the processing

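With 6 cows, the calls depended on the pairing and on single cows, while most directions did not. With the cow as a block 3105 probes were called, 7 of them of the 10 genes, in 2 genes, and 24 genes of the lists, of which ICAM1 and CD8A passed the filter only through REST. Without the replicate block these counts were 837, 0, 0 and 4, although 5 of the 20 probes had an unadjusted p under 0.05. With the slide as a block in its place they were 1899, 0, 0 and 7 (unadjusted 5), and by the methods' t-test, whose pairing the methods do not state and which was run here unpaired and with each probe's own variance, 723, 0, 0 and 2 (unadjusted 5). Without a filter on dim probes they were 388, 0, 0 and 6 (unadjusted 11). Without cows 1 and 2 they were 236, 0, 0 and 4 (unadjusted 14). With the cow as a random block 1 gene, LTF, was called, and with normexp 12 probes were called, 3 of SAA3 and 1 of M-SAA3.2 among them. Leaving out 1 cow gave 1044 to 3292 probes, 0 to 7 probes of the 10 genes, 0 to 2 of the genes and 11 to 24 genes of the lists. Tested genes of the 10 that moved the same way in all cows numbered 3, 3 to 4 with a cow left out and 2 with a median shift, when SAA3 changed by -0.01 in cow 4. The direction turned for LBP without cows 1 and 2 (-0.15), for LPO with normexp (0.049) and without cow 3 (0.055), and for S100A12 without cow 3 (-0.28) and cow 5 (-0.07). With a cow left out, LPO ranged from -0.057 to 0.055 and S100A12 from -0.28 to 0.30. When only probes above background on all arrays were tested, 9 probes were called, with M-SAA3.2 (adjusted p = 0.0938) and 1 SAA3 probe (0.0966) added. Counted by the probe of highest mean signal these were 3 genes, because the brightest SAA3 probe was not called (adjusted p = 0.159). M-SAA3.2 was also called with normexp and without cow 1. Where a setting changed a result, the cause was not tested.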
